A study of Mus musculus with 36 samples.

Results

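Genes of the circadian clock and its direct output, 10 in all, were followed in kidney: Arntl and Npas2, Per1, Per2 and Per3, Ciart, Nr1d1, and the 3 output factors Dbp, Tef and Hlf. They were chosen by symbol, with earlier results of these data known, and all 10 were found among the 55536 gene identifiers counted. All 10 were also among the 18180 genes that passed the filter on low counts. The libraries came from snap-frozen kidney of mice on the C57BL/6 strain, 36 samples with 6 in each of 6 groups. Mice of the type ob (ob/ob, which lack functional leptin and become obese) and normal mice of the type b6j were left untreated (control) or given CdCl2 at 0.5 or 2 mg/kg. The labels name no other allele or agent. Age, sex, route, duration of dosing and hour of collection are not given in the sources used here, so each value is a single snapshot of genes that change over the day. The ob allele alters the leptin gene without removing it, so gene counts do not check that label. The replicates are separate samples by their labels, and p-values measure the spread between these samples.

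Nearly every cell carries a clock in which the proteins BMAL1 (encoded by Arntl) and CLOCK or NPAS2 pair up on DNA and switch on the Per genes, Ciart, Nr1d1 and the output factors. The PER proteins and CIART (also called CHRONO) return to repress that pair, and REV-ERBα (encoded by Nr1d1) represses Arntl, so Arntl and the genes it drives peak at opposite times of day. DBP, TEF and HLF are related bZIP factors that pass the rhythm on, and in kidney the clock is known for timing salt transport, blood flow and drug handling.

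Promoter windows are shown because the clock proteins are known to act on these genes through short DNA strings in or near them. RefSeq windows on GRCm38.p6, running from 250 bases before to 50 after a transcript start, were found for 9 of the 10 genes (12 windows, none for Per2). Each window was searched on both strands for CACGTG (the E-box bound by BMAL1 pairs), CACGTT (a variant E-box), TTATGTAA and TTACGTAA (D-boxes, bound by DBP, TEF and HLF), TAGGTCA (the core of the site bound by REV-ERBα) and TGACGTCA (the cAMP response element). No match overlapped another. Capitals in the 6 sequences mark the matches, and all are read 5′ to 3′ on the gene's own strand.
Ciart: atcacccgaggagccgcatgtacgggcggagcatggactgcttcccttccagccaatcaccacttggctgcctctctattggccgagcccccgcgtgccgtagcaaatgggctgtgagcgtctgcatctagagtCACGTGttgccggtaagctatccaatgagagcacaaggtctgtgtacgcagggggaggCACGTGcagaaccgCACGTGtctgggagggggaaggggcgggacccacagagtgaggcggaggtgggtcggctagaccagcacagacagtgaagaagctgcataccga
Per1: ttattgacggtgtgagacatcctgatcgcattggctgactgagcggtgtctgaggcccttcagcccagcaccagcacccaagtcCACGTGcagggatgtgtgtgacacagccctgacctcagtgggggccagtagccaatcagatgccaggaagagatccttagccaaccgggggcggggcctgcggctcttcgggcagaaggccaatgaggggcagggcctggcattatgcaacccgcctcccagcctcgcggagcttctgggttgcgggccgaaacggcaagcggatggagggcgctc
Tef: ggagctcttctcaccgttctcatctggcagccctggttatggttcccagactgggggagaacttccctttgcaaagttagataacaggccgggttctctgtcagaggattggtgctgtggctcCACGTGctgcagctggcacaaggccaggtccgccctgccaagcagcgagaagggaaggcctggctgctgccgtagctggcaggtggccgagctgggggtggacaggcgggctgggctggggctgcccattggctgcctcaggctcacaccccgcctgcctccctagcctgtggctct
Per3: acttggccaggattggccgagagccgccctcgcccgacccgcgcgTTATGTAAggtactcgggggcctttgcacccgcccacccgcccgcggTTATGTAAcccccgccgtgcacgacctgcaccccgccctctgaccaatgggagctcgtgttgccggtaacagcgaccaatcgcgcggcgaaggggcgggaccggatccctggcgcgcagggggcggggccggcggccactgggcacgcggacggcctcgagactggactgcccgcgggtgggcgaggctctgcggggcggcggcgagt
Arntl: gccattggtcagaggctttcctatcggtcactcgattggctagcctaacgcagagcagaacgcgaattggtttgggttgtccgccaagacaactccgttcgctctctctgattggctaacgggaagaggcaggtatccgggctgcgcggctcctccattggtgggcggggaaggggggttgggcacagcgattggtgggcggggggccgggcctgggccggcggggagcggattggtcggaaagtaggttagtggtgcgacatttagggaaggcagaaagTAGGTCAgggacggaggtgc
Hlf: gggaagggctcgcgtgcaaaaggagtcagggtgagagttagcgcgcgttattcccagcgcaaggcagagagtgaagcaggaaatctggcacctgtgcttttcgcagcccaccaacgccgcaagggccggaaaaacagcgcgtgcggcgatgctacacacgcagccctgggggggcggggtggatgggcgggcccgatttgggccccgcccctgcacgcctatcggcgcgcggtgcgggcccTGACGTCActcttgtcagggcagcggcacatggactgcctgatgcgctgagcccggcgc
The Ciart window lies at chr3:95882179-95882478 on the minus strand and holds the E-box 3 times, with first bases at -116, -58 and -44 from the start. The Per1 window (chr11:69098699-69098998, plus strand) holds it at -166, and the Tef window (chr15:81802423-81802722, plus strand) at -127. A second Tef window, at a start further downstream, holds it at -138. Among all 32851 RefSeq windows, 7.15% held the E-box, against 4 of the 12 windows here, which belong to 3 of the 9 genes. The Per3 window (chr4:151044616-151044915, minus strand) holds TTATGTAA at -205 and -158, a string in 0.938% of all windows. The Arntl window (chr7:113207261-113207560, plus strand) holds TAGGTCA at 30 bases past the start, found in 2.61% of all windows. The Hlf window (chr11:90390868-90391167, minus strand) holds TGACGTCA at -9, found in 1.79%. Nr1d1 had CACGTT on the opposite strand at -28 (4.68% of all windows), TTACGTAA was in none of the 12 windows (0.119% of all), and the windows of Npas2 and Dbp, the other window of Arntl and the second of Per1 held none of the 6 strings. A match describes the letters in a window and not a bound site.

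Total counts ran from 26783936 to 37244058 (median 30911052.5), so 3 counts correspond to between 0.0805 and 0.112 CPM (counts scaled to library size), and the lowest value of any of the 10 genes was 0.275 CPM (Npas2). No library was a copy of another. Markers of proximal tubule and of distal nephron were present in all 36 libraries, as the kidney label says. The library ob 2 mg/kg replicate 5 stood far from the rest: its 6 proximal tubule markers summed to 835 CPM against a group median of 9740 CPM, and limma's sample weighting gave it 0.0332, the lowest of the 36. Another, b6j 2 mg/kg replicate 6, was the lowest of its group for 7 of the 10 clock genes and the highest for 2. Its sample weight was 0.883, so it stood apart in these genes and not in that weighting. These 2 libraries are named beside the results that rest on them. The next lowest weight was 0.377, for b6j 0.5 mg/kg replicate 6. That library was the highest of its group for 4 of the 10 clock genes and the lowest for 3. Counting took no account of strand, and 539 of the 2993 exonic bases of Dbp overlap Sphk2 on the other strand, as do 263 of 3077 of Nr1d1 with Thra, 193 of 7867 of Tef with Gm17597 and 33 of 7523 of Arntl with Gm45355, so reads there cannot be assigned to a strand.

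In untreated kidney the output factors and Nr1d1 were abundant and the activators scarce. Compared per length, in RPKM (CPM divided by exon length), Tef was the most abundant in b6j control at 60.6 ± 4.84 (SD, n = 6), followed by Dbp at 26.6 ± 5.39, Nr1d1 at 20.4 ± 5.23, Hlf at 16.2 ± 1.08, Per2 at 14.2 ± 1.04 and Per1 at 11.6 ± 1.72. Per3 (7.89 ± 1.00) and Ciart (4.59 ± 0.648) came next, and Arntl (0.521 ± 0.221) and Npas2 (0.478 ± 0.21) were last. In ob control the order was the same except that Per1, at 19.3 ± 1.85 RPKM, ranked between Nr1d1 and Hlf (18.2 ± 1.51). Neighbours in this order less than the sum of their SDs apart were Dbp and Nr1d1, Nr1d1 and Hlf, Hlf and Per2, Per2 and Per1, and Arntl and Npas2 in b6j control. In ob control they were Per1 and Hlf, Hlf and Per2, and Arntl and Npas2.

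**Figure D1:**
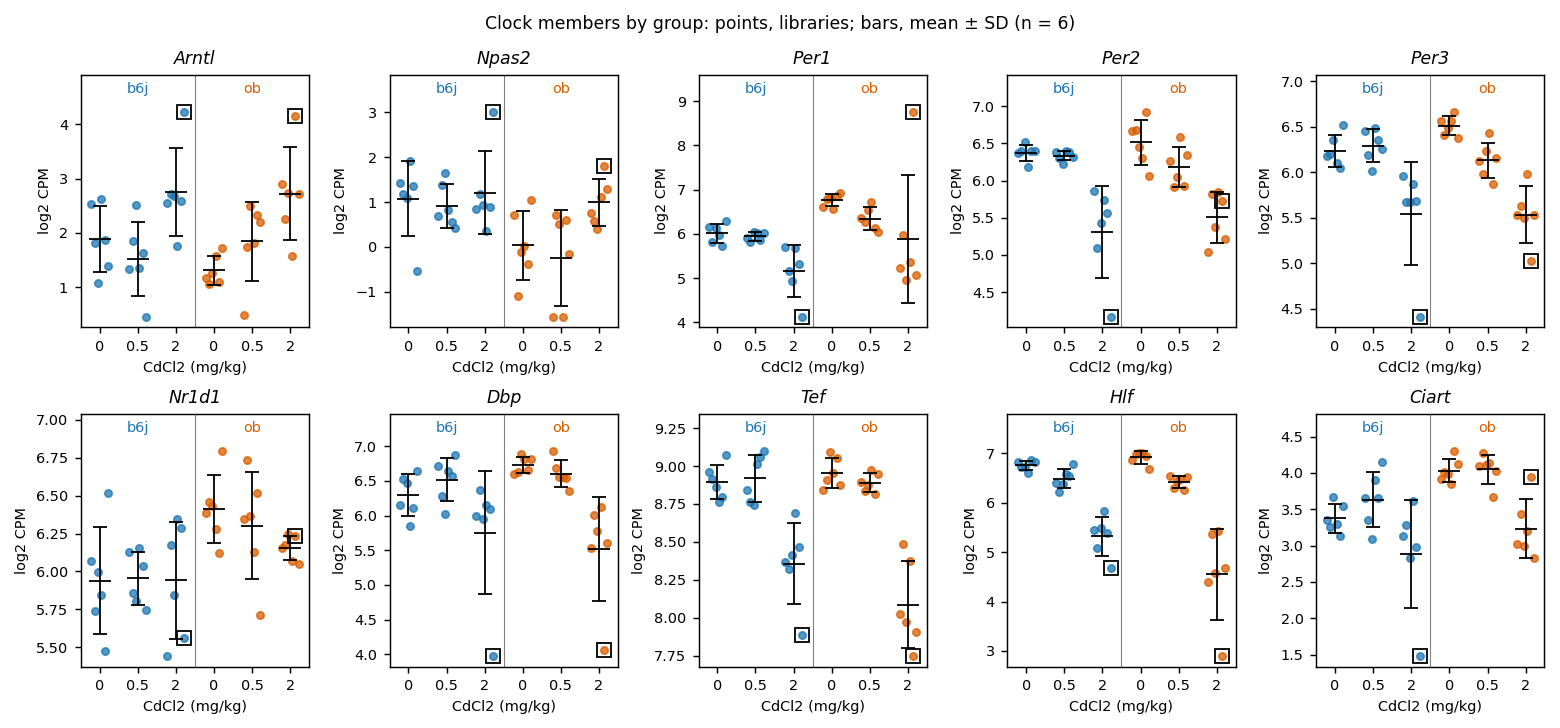
Each panel shows 1 gene in log2 CPM (prior count 2) against the CdCl2 dose in mg/kg, for b6j (blue) and ob (orange), with 1 point per library, bars for the mean ± SD of 6 libraries and an own vertical scale per gene. Squares mark ob 2 mg/kg replicate 5 and b6j 2 mg/kg replicate 6, which sit apart from their groups in Arntl and Dbp, while Hlf, Tef, Per2 and Per3 lie low at 2 mg/kg in both genotypes.

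Without cadmium, ob kidney had more Ciart and Nr1d1 than b6j kidney. Ciart, a repressor of the BMAL1 pair, ran from 8.69 to 12.6 CPM (median 9.93) in b6j control and from 14.4 to 19.6 CPM (median 15.9) in ob control. The 2 groups did not overlap, and the log2 difference was 0.66 ± 0.21 (SE; edgeR's quasi-likelihood test, adjusted p = 0.0267). Nr1d1 ran from 44.4 to 91.4 CPM (median 60.7) in b6j control and from 69.6 to 111 CPM (median 85) in ob control. These groups overlapped, with a log2 difference of 0.45 ± 0.15 (adjusted p = 0.0424). Across all genes 15.5% were called in this comparison and 6.6% were called higher in ob, against 2 of the 10 clock genes, both higher. Markers of other cell types differed between the same groups, with 4 of 4 podocyte markers (summed level 180 to 235 CPM in b6j control and 310 to 350 CPM in ob control) and 3 of 4 endothelial markers (150 to 210 and 250 to 291 CPM) called higher in ob. The 6 proximal tubule markers, of which 1 was called lower, summed to a median of 39700 CPM in b6j control and 18700 CPM in ob control. Such a sum weighs the most abundant markers most, and the median log2 difference over the 6 was -0.17. Without ob 2 mg/kg replicate 5, 2 of them were called higher in ob and 3 lower. The part of all these cell types in the result was not tested. Fitted on the 12 control libraries alone, edgeR called 8 of the 10 (6 higher and 2 lower), where 30.6% of all genes were called.

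Both calls were marginal in the fit to all libraries. The Nr1d1 call ended without any 1 of 9 control libraries, namely ob control replicates 1, 2, 3 and 6 and b6j control replicates 1 to 5, with log2 differences of 0.36 to 0.47 (adjusted p from 0.0573 to 0.136). The Ciart call ended without ob control replicate 5 or 6, or without b6j control replicate 1, 2 or 5, at 0.59 to 0.65 (adjusted p from 0.0501 to 0.0649). A fit without ob 2 mg/kg replicate 5 and b6j 2 mg/kg replicate 6, chosen after the data were seen, kept both calls. Ciart was then at 0.65 (edgeR, adjusted p = 0.00046) and Nr1d1 at 0.45 (adjusted p = 0.0226).

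Per1, a repressor that also responds directly to glucocorticoid and other signals, separated the control groups more widely than either but was not called in the fit to all libraries. It ran from 53 to 78.5 CPM (median 66.3) in b6j control and from 94.8 to 122 CPM (median 111) in ob control. All 6 ob libraries lay above all 6 b6j libraries, and Per1 and Ciart were the 2 of 10 clock genes with no overlap, against 13.3% of all genes. The log2 difference of Per1 was 0.74 ± 0.40 (edgeR, adjusted p = 0.239), and without ob 2 mg/kg replicate 5, which is in neither group but enters the shared estimate of spread, it was 0.73 (adjusted p = 0.000791). Npas2 went the other way, from 0.627 to 3.73 CPM (median 2.36) in b6j control against 0.406 to 2.00 CPM (median 0.907) in ob control, with a log2 difference of -1.08 ± 0.45 that was not called (adjusted p = 0.102). Without b6j control replicate 6 it was -1.28 (adjusted p = 0.0494). The other 6 genes were not called, at log2 differences between -0.67 (Arntl) and 0.42 (Dbp).

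The lower dose, 0.5 mg/kg, gave no call among the 10 genes in either genotype. This and the following comparison with control use the same control libraries, which the genotype comparison also used. In b6j, where 0.325% of all genes were called, no clock gene reached an unadjusted p under 0.05 in edgeR's test and DESeq2 called none. The log2 changes of the 10 ran from -0.34 (Arntl, 95% interval -1.10 to 0.41) to 0.29 (Ciart, -0.12 to 0.70). In ob, where 4.28% were called, Per3 and Hlf reached an unadjusted p under 0.05 in edgeR's test and DESeq2 again called none. Fitted on the 12 libraries of these 2 ob groups alone, edgeR called Per1, Per3 and Hlf lower, where 11.8% of all genes were called.

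Hlf gave the only complete separation at the lower dose. It ran from 103 to 129 CPM (median 125) in ob control and from 76 to 93.6 CPM (median 88.5) in ob 0.5 mg/kg. All 6 treated libraries lay below all 6 controls, which was so for 1 of the 10 clock genes and for 5.68% of all genes in either direction. The log2 change was -0.50 ± 0.21 (edgeR, adjusted p = 0.213), and -0.51 (adjusted p = 0.0134) without ob 2 mg/kg replicate 5, which is in neither group. In b6j the same gene ran from 74.8 to 111 CPM (median 89) at 0.5 mg/kg against 96.9 to 116 CPM (median 109) in control. Here 5 of the 6 treated libraries also lay below all 6 controls, and the overlap came from replicate 6 alone, at 111 CPM. The b6j log2 change was -0.26 ± 0.21 and was not called.

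At 2 mg/kg the output factors Hlf and Tef and the repressors Per2 and Per3 fell in both genotypes. In b6j these 4 of the 10 clock genes fell and none rose, where 23.7% of all genes were called (11.4% lower). In ob, Dbp and Ciart fell as well and Arntl rose, 6 lower and 1 higher, where 38.4% of all genes were called (18% lower and 20.4% higher). The median log2 change over the 10 was -0.46 in b6j and -0.80 in ob, against 0.02 and 0.01 over all genes tested. Over 20 other core clock genes and regulators it was -0.10 and 0.03. The 10 were chosen with earlier results of these data known, so shares and medians set against all genes only describe them. In each genotype 5 of the 10 had no overlap with control, against 17.3% of all genes in b6j and 17.1% in ob. RNA came from whole kidney, so a lower level can mean fewer cells of a type or less RNA per cell, and these cannot be told apart.

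**Figure D2:**
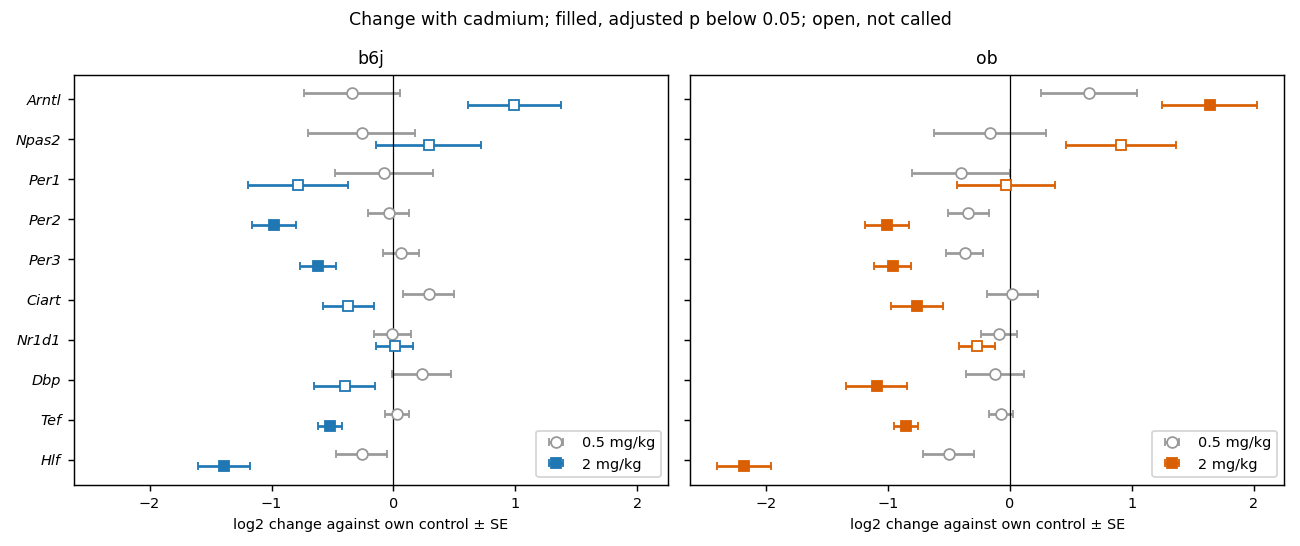
The log2 change against the untreated libraries of the same genotype (horizontal axis, with bars of 1 SE) is shown for each of the 10 genes at 0.5 mg/kg (circles) and 2 mg/kg (squares), with b6j on the left and ob on the right. Filled symbols passed an adjusted p of 0.05: 4 squares in b6j and 7 in ob, and no circle.

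Hlf, an output factor, had the largest decrease of the 10 genes in both genotypes. In b6j it ran from 96.9 to 116 CPM (median 109) in control and from 25.7 to 57.3 CPM (median 42.8) at 2 mg/kg. In ob it ran from 103 to 129 CPM (median 125) in control and from 7.35 to 43 CPM (median 24.6) at 2 mg/kg. Every treated library was below every control of its genotype. The log2 change was -1.39 ± 0.21 in b6j (2.63-fold lower, edgeR adjusted p = 5.95e-06) and -2.18 ± 0.22 in ob (4.52-fold lower, adjusted p = 1.04e-09). Without ob 2 mg/kg replicate 5, which held the lowest level, the ob value was -1.98 (adjusted p = 9.68e-13).

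Tef, the most abundant of the 10, also separated completely. It ran from 435 to 538 CPM (median 474) in b6j control and from 237 to 413 CPM (median 335) at 2 mg/kg. Tef in ob ran from 460 to 547 CPM (median 488) in control and from 214 to 359 CPM (median 256) at 2 mg/kg. No treated library reached the lowest control in either genotype. The log2 change was -0.52 ± 0.10 in b6j (edgeR, adjusted p = 0.000275) and -0.85 ± 0.10 in ob (adjusted p = 7.34e-08).

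Dbp, a strongly rhythmic output factor, passed in ob and not in b6j. In ob it ran from 97.3 to 118 CPM (median 107) in control and from 16.6 to 69.5 CPM (median 51.7) at 2 mg/kg, without overlap, and the log2 change was -1.09 ± 0.25 (edgeR, adjusted p = 0.000665). In b6j it ran from 57.8 to 99.7 CPM (median 79.6) in control and from 15.6 to 82.4 CPM (median 66.1) at 2 mg/kg, with overlap, and the log2 change of -0.40 ± 0.25 was not called (adjusted p = 0.261). A single library of each treated group lay far below its fellows, at 16.6 CPM (ob replicate 5) and 15.6 CPM (b6j replicate 6). Without ob 2 mg/kg replicate 5 the ob change was -0.91 (adjusted p = 0.000764).

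The repressors Per2 and Per3 fell in both genotypes. Per2 ran from 72.6 to 91.6 CPM (median 84.1) in b6j control and from 17.9 to 58.2 CPM (median 45.1) at 2 mg/kg, a log2 change of -0.98 ± 0.18 (edgeR, adjusted p = 7.52e-05). Per2 in ob ran from 66.8 to 121 CPM (median 94.3) in control and from 32.9 to 57.5 CPM (median 47.3) at 2 mg/kg, a log2 change of -1.01 ± 0.18 (adjusted p = 2.63e-05). Neither genotype showed overlap with its control.

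Per3 ran from 66 to 92 CPM (median 73.1) in b6j control and from 21.2 to 62.2 CPM (median 51.2) at 2 mg/kg, a log2 change of -0.62 ± 0.15 (edgeR, adjusted p = 0.00268). Per3 in ob ran from 83.4 to 101 CPM (median 92.1) in control and from 32.5 to 63.4 CPM (median 46.3) at 2 mg/kg, a log2 change of -0.96 ± 0.15 (adjusted p = 7.82e-06). Again every treated library was below every control.

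Per1 shows how far 1 library can carry a result. In ob control it ran from 94.8 to 122 CPM. In 5 of the 6 ob libraries at 2 mg/kg it lay between 31 and 62.6 CPM, below all controls, while replicate 5 stood at 432 CPM. With all libraries the log2 change was -0.03 ± 0.40 (edgeR, adjusted p = 0.959), and without replicate 5 it was -1.40 (adjusted p = 6.56e-08). In b6j Per1 ran from 53 to 78.5 CPM (median 66.3) in control and from 17.4 to 51.8 CPM (median 38.1) at 2 mg/kg, with no overlap. The log2 change of -0.78 ± 0.41 was not called (adjusted p = 0.171), and without ob 2 mg/kg replicate 5, in neither b6j group, it was -0.79 (adjusted p = 0.000275).

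**Figure D3:**
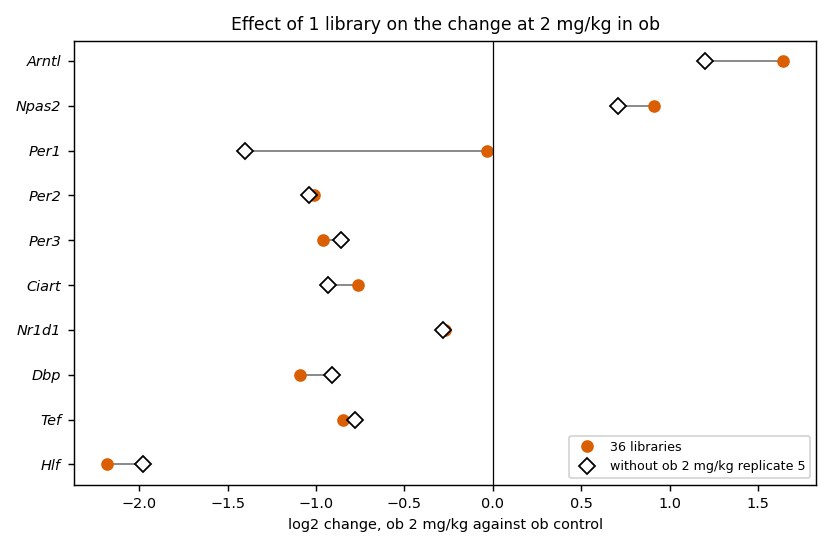
For each of the 10 genes the log2 change of ob 2 mg/kg against ob control (horizontal axis) is shown with all 36 libraries (filled circles) and without ob 2 mg/kg replicate 5 (open diamonds). Per1 moved from -0.03 to -1.40, Arntl from 1.64 to 1.2, and Nr1d1 and Per2 hardly moved.

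Ciart fell in ob, from 14.4 to 19.6 CPM (median 15.9) in control to between 7.03 and 15.3 CPM (median 8.57) at 2 mg/kg. Only replicate 5, at 15.3 CPM, reached the control range. The log2 change was -0.76 ± 0.21 (edgeR, adjusted p = 0.00405), and -0.93 (adjusted p = 0.000272) without that library. In b6j it ran from 8.69 to 12.6 CPM (median 9.93) in control and from 2.72 to 12.2 CPM (median 8.29) at 2 mg/kg, and the log2 change of -0.37 ± 0.21 was not called (adjusted p = 0.216).

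Nr1d1, the repressor of Arntl and also a target of the BMAL1 pair, was not called at 2 mg/kg in either genotype. In b6j the log2 change was 0.01 (95% interval -0.29 to 0.31, adjusted p = 0.978) and in ob it was -0.27 (-0.57 to 0.03, adjusted p = 0.167). It ran from 43.4 to 81.3 CPM in b6j 2 mg/kg and from 66.1 to 75.9 CPM in ob 2 mg/kg, overlapping its control ranges of 44.4 to 91.4 and 69.6 to 111 CPM.

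In ob the activator Arntl rose while the 3 output factors fell. It ran from 2.03 to 3.22 CPM (median 2.27) in control and from 2.91 to 17.8 CPM (median 6.55) at 2 mg/kg. Of the 6 treated libraries 5 were above all controls, and replicate 4, at 2.91 CPM, was not. The log2 change was 1.64 ± 0.39 (3.12-fold higher, edgeR adjusted p = 0.00105), and 1.2 (adjusted p = 0.00694) without replicate 5, the highest. In b6j it ran from 2.06 to 6.12 CPM (median 3.52) in control and from 3.31 to 18.7 CPM (median 6.14) at 2 mg/kg, with overlap.

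In b6j the log2 change of Arntl was 0.99 ± 0.38, just short of a call (edgeR, adjusted p = 0.0551). It passed without ob 2 mg/kg replicate 5 (0.98, adjusted p = 0.0207), without b6j control replicate 1 (1.13, adjusted p = 0.0447), without b6j control replicate 4 (1.16, adjusted p = 0.0341) and without b6j 2 mg/kg replicate 4 (1.14, adjusted p = 0.0285). Npas2, the partner that can stand in for CLOCK, was not called in either genotype, at 0.29 ± 0.43 in b6j and 0.91 ± 0.45 in ob (adjusted p = 0.692 and 0.107). Without ob control replicate 6 the ob value was 1.19 (adjusted p = 0.0475). Without b6j 2 mg/kg replicate 6, whose 7.99 CPM stood over 5 fellows between 1.22 and 2.21 CPM, the b6j value changed sign to -0.39 (adjusted p = 0.551).

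**Figure D4:**
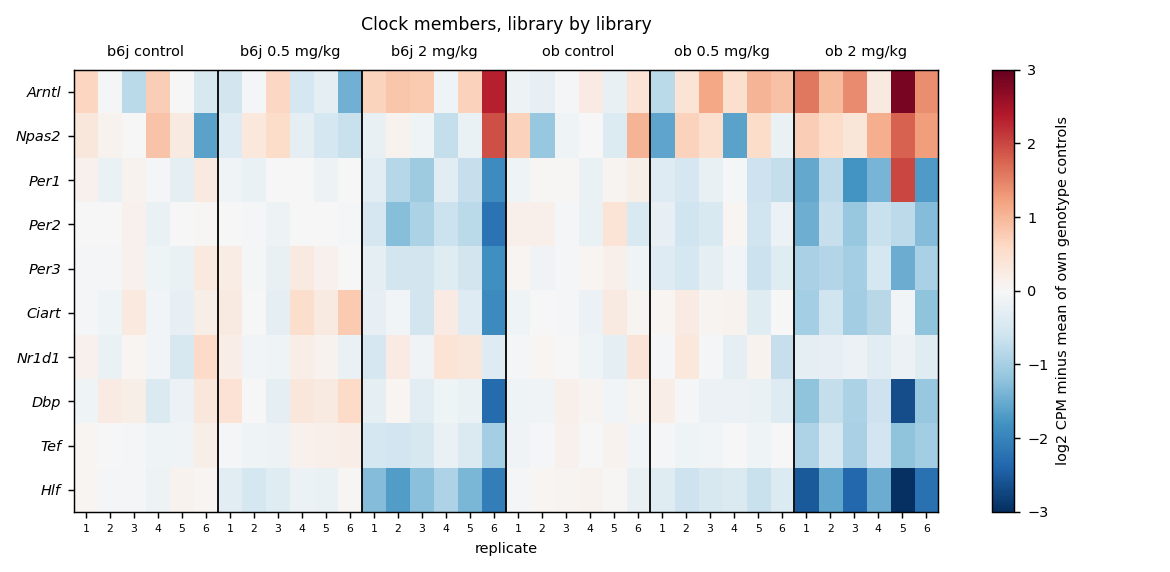
Each cell gives log2 CPM of 1 gene (row) in 1 library (column, by group and replicate number) minus the mean of the untreated libraries of its genotype, in blue where lower and red where higher. The colours end at 3, which only Hlf in ob 2 mg/kg replicate 5 (-4.03) exceeds; in the 2 mg/kg groups Hlf, Tef, Per2 and Per3 are blue in all libraries, and Arntl is dark red in b6j replicate 6 and ob replicate 5.

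The 2 doses were also compared directly. In b6j, 2 against 0.5 mg/kg gave 6 calls among the 10 genes, 1 higher and 5 lower, where 17.3% of all genes were called (8.78% higher and 8.51% lower). Per1, Per2, Per3, Tef and Hlf had no overlap between the doses, 5 of the 10 against 13.2% of all genes. Arntl was higher by 1.33 ± 0.38 on the log2 scale (edgeR, adjusted p = 0.0134), a call that ended without b6j 2 mg/kg replicate 6 (0.85, adjusted p = 0.107). Hlf (-1.13 ± 0.21, adjusted p = 0.0002), Per2 (-0.93 ± 0.18, adjusted p = 0.000227), Per3 (-0.68 ± 0.15, adjusted p = 0.00165) and Tef (-0.55 ± 0.10, adjusted p = 0.000239) were lower. Ciart was lower too (-0.66 ± 0.21, adjusted p = 0.0256). That call ended without b6j 0.5 mg/kg replicate 4 (-0.61, adjusted p = 0.0557) or 6 (-0.54, adjusted p = 0.0952), and without b6j 2 mg/kg replicate 3 (-0.62, adjusted p = 0.0537) or 6 (-0.48, adjusted p = 0.0527). The Ciart call was also lost with scaling by library size only (-0.54, edgeR adjusted p = 0.0603) and in a fit of these groups alone (-0.64, adjusted p = 0.0776). Without ob 2 mg/kg replicate 5, Per1 (-0.70, adjusted p = 0.00132) and Dbp (-0.63, adjusted p = 0.0157) were also called lower.

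In ob, 2 against 0.5 mg/kg gave 7 calls, 1 higher and 6 lower, where 29.7% of all genes were called (15.2% higher and 14.5% lower). Per2, Dbp, Tef and Hlf had no overlap, 4 of the 10 against 10.9% of all genes. Hlf (-1.68 ± 0.22, edgeR adjusted p = 8.62e-07), Tef (-0.78 ± 0.10, adjusted p = 1.65e-06) and Dbp (-0.97 ± 0.25, adjusted p = 0.00343) were lower, as were Per2 (-0.67), Per3 (-0.58) and Ciart (-0.78), each with an adjusted p between 0.00444 and 0.00491. Arntl was higher by 0.99 ± 0.38 (adjusted p = 0.0463). Its call ended without ob 2 mg/kg replicate 5 (0.57, adjusted p = 0.244), and also without ob 2 mg/kg replicate 1 or 3 or ob 0.5 mg/kg replicate 1, 2, 4 or 6 (0.81 to 1.04, adjusted p from 0.0505 to 0.115). The Arntl call was also lost in limma's voom fit with sample weights (0.52, adjusted p = 0.305). With edgeR it was lost in a fit of these groups alone (1.02, adjusted p = 0.118) and with no filter (0.98, adjusted p = 0.0592). Per1 was at 0.37 ± 0.40 with all libraries and at -0.99 (adjusted p = 5.63e-05) without ob 2 mg/kg replicate 5. Npas2, at 1.08 ± 0.46 (adjusted p = 0.0708), was called without ob 0.5 mg/kg replicate 2 (1.28, adjusted p = 0.0484).

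The genotypes were also compared at each dose. At 0.5 mg/kg no clock gene was called between ob and b6j, where 9.64% of all genes were. Npas2 and Nr1d1 reached an unadjusted p under 0.05 in edgeR's test, and DESeq2 called none. Without ob 0.5 mg/kg replicate 6 Nr1d1 was called higher in ob (0.47, adjusted p = 0.0463). At 2 mg/kg Per1 was higher in ob (1.49 ± 0.41, adjusted p = 0.0117) and Hlf lower (-0.62 ± 0.21, adjusted p = 0.0413), where 16.4% of all genes were called (7.9% higher and 8.53% lower). No clock gene separated the 2 groups completely, against 5.18% of all genes. The Per1 call ended without ob replicate 5 (0.12, adjusted p = 0.706). Fitted with edgeR on the 12 libraries of these 2 groups alone, neither gene was called (adjusted p = 0.229 for Per1 and 0.326 for Hlf), and limma's voom fit with sample weights called neither.

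The Hlf difference at 2 mg/kg rested on more libraries. Its call ended without ob 2 mg/kg replicate 1, 3, 5 or 6 or b6j 2 mg/kg replicate 1, 3, 4 or 5, at -0.42 to -0.60 (adjusted p from 0.0525 to 0.127). Tef, at -0.27 ± 0.10 (adjusted p = 0.0734), was called lower in ob without ob 2 mg/kg replicate 2 (-0.36, adjusted p = 0.0122) or 4 (-0.31, adjusted p = 0.0335) or b6j 2 mg/kg replicate 6 (-0.34, adjusted p = 0.0175).

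Whether the response itself differed between genotypes was tested as an interaction. At 0.5 mg/kg no clock gene was called, none had an unadjusted p under 0.05 in edgeR's test and DESeq2 called none, where 0.385% of all genes were called. At 2 mg/kg none was called either, where 2.07% of all genes were called, and DESeq2 called none. Hlf and Tef had an unadjusted p under 0.05, each with a larger decrease in ob. For Hlf the difference in log2 change was -0.78 ± 0.30 (95% interval -1.36 to -0.20, edgeR adjusted p = 0.159) and for Tef -0.33 ± 0.15 (-0.62 to -0.04, adjusted p = 0.245). For Per2 it was -0.03 (-0.51 to 0.46). The decrease of Dbp, called in ob and not in b6j, was not shown to differ between them (-0.69 ± 0.35, adjusted p = 0.301). A further fit left out both ob 2 mg/kg replicate 5 and b6j 2 mg/kg replicate 6, a choice made after the data were seen and on Arntl itself. There 4 genes were called, each with a larger decrease in ob, where 4.52% of all genes were called. The 4 were Per1 (-0.75, adjusted p = 0.0213), Dbp (-0.69, adjusted p = 0.0221), Hlf (-0.68, adjusted p = 0.0284) and Ciart (-0.73, adjusted p = 0.035).

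Pooled over the groups after centring, libraries with more Arntl had less Dbp, Hlf, Tef and Per3. To remove the group differences, each log2 CPM was taken relative to its group mean, and Arntl was then correlated with the other 9 genes over the 36 libraries. The p-values came from 100000 permutations within groups, two-sided and adjusted over the 9 pairs, and the smallest they can give before adjustment is 1e-05. Dbp gave r = -0.80 (adjusted p = 6e-05) and rho = -0.73 (adjusted p = 4.5e-05). Hlf gave r = -0.71 and rho = -0.63, Tef r = -0.70 and rho = -0.62, and Per3 r = -0.69 and rho = -0.62, with adjusted p from 6e-05 to 0.000432. Npas2 went with Arntl, at r = 0.69 (adjusted p = 6e-05) and rho = 0.68 (adjusted p = 4.5e-05).

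Per2 (r = -0.52, rho = -0.58) and Ciart (r = -0.47, rho = -0.52) followed Arntl inversely and less closely, with permutation adjusted p from 0.000495 to 0.029. Without ob 2 mg/kg replicate 5 r was -0.64 for Per2 and -0.73 for Ciart. Hlf, Tef and Per3 then gave -0.67, -0.65 and -0.64, so this order rested on that library. Nr1d1 did not pass (r = -0.17, adjusted p = 0.402; rho = -0.11, adjusted p = 0.535). Per1 gave r = 0.15 (adjusted p = 0.459) and rho = -0.20 (adjusted p = 0.31), and without ob 2 mg/kg replicate 5 it gave r = -0.48 (adjusted p = 0.0205) and rho = -0.40 (adjusted p = 0.0314).

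The 2 libraries farthest from the Arntl median were ob 2 mg/kg replicate 5 and b6j 2 mg/kg replicate 6. Without them (34 libraries) r was -0.73 for Dbp, -0.58 for Hlf, -0.52 for Tef, -0.50 for Per3, -0.49 for Per2, -0.64 for Ciart and 0.58 for Npas2, and all 7 kept a permutation adjusted p of 0.0151 or lower. Per1 then stood at -0.26 (adjusted p = 0.182). Taken group by group (6 libraries each, given with no test), Arntl and Dbp gave r between -0.94 and -0.80 in 5 groups and 0.68 in ob control, where Arntl spanned 2.03 to 3.22 CPM. The other genes varied more from group to group: r ran from -0.97 to -0.27 for Hlf, from -0.99 to -0.11 for Tef, from -0.99 to -0.06 for Per3, from -0.94 to -0.21 for Per2 and from 0.53 to 0.98 for Npas2. For Ciart it ran from -0.96 to -0.20 in 5 groups and was 0.54 in ob 2 mg/kg. All genes of a library share its depth and scaling factor.

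**Figure D5:**
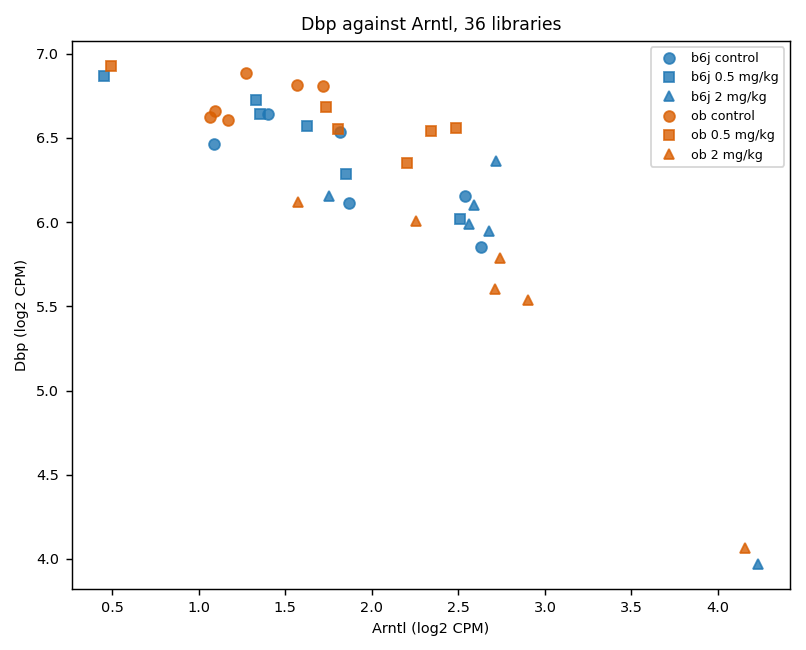
Dbp against Arntl, both in log2 CPM, for the 36 libraries, with colour for genotype (b6j blue, ob orange) and shape for dose. Dbp falls as Arntl rises, and the 2 points at the lower right are b6j 2 mg/kg replicate 6 (Arntl 18.7 CPM, Dbp 15.6 CPM) and ob 2 mg/kg replicate 5 (17.8 and 16.6 CPM).

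The genes whose pattern was most like that of Arntl over all 36 libraries were Dhx32 (r = 0.80), Clock (0.77), Atp13a3 (0.77), Sash1 (0.77) and Ypel2 (0.76), by Pearson's r of log2 CPM. The lowest r values were those of Cys1 (-0.82), Coq10b (-0.80) and Mum1 (-0.80). For Dbp the highest were Nagk (0.86), Sox13, Alms1-ps2, Mum1 and Mcf2l (0.85 each), and the lowest were Ypel2 (-0.84), Atp13a3 (-0.83) and Dhx32 (-0.83). These values contain the group differences. With group means removed, Clock, the usual partner of BMAL1, was the second highest for Arntl (0.71, after Pigm at 0.73) and the lowest for Dbp (-0.83). The other centred neighbours of Arntl were Rnf125 (0.70), Xrcc2 (0.69) and Chil3 (0.69), with Cys1 (-0.77), Igfbp4 (-0.76) and Hes6 (-0.73) lowest. Those of Dbp were Rabep2 (0.79), Igsf9 (0.78), Nagk (0.77), Cys1 (0.76) and Sult1a1 (0.76), with Senp2 (-0.76) and Xrcc2 (-0.75) next to Clock at the low end.

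Other core clock genes and regulators, 20 in all and all tested, moved in both directions. In b6j at 2 mg/kg 1 rose and 3 fell, 4 of 20 where 23.7% of all genes were called, with a median log2 change of -0.10: Timeless (0.62 ± 0.15) rose, and those that fell included Rora (-0.40 ± 0.09), a nuclear receptor that activates Arntl, and Fbxl21 (-0.81 ± 0.18), which acts on cryptochrome stability (edgeR, adjusted p from 0.000983 to 0.00285). In ob at 2 mg/kg 4 rose and 5 fell, 9 of 20 where 38.4% of all genes were called, with a median of 0.03. Nfil3 (1.36 ± 0.40), a repressor at D-boxes, Gsk3b (0.50 ± 0.09), Bhlhe41 (0.52 ± 0.19) and Clock (0.30 ± 0.10) rose. Fbxl21 (-0.85 ± 0.18), Sirt1 (-0.33 ± 0.09), Nr1d2 (-0.32 ± 0.09), Btrc (-0.30 ± 0.09) and Rora (-0.29 ± 0.09) fell.

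Without ob 2 mg/kg replicate 5 more of these 20 genes were called lower. The counts were then 1 higher and 8 lower in b6j and 2 higher and 9 lower in ob, where 34.8% and 38.0% of all genes were called. That library is in neither b6j group and acts on the b6j calls only through the shared fit. Clock (0.22, edgeR adjusted p = 0.0727), Bhlhe41 (0.42, adjusted p = 0.0682) and Nfil3 (0.60, adjusted p = 0.15) were then no longer called in ob, and genes newly called lower included Cry2 (-0.34, adjusted p = 0.00159). Between untreated groups, ob had more Bhlhe41 (0.98 ± 0.19) and Nr1d2 (0.29 ± 0.09) and less Nfil3 (-1.94 ± 0.41) and Fbxw11 (-0.27 ± 0.09), and without that library the counts rose from 2 higher and 2 lower to 4 and 5, where 26.0% of all genes were called. The Nr1d2 and Fbxw11 calls each ended without any 1 of 7 control libraries, at 0.25 to 0.28 (adjusted p from 0.0506 to 0.0815) and -0.27 to -0.25 (adjusted p from 0.0604 to 0.086). At 0.5 mg/kg none of the 20 was called in either genotype by edgeR, with or without it.

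Among 18 genes known as clock outputs in kidney or liver, 17 were tested, and Avpr2 did not pass the filter. In b6j at 2 mg/kg 3 rose and 6 fell (median -0.15), 9 of 17 where 23.7% of all genes were called. In ob 4 rose and 6 fell (median -0.34), 10 of 17 where 38.4% of all genes were called. Without ob 2 mg/kg replicate 5 the counts were 4 higher and 6 lower in b6j and 3 higher and 8 lower in ob, where 34.8% and 38.0% of all genes were called. Usp2, a deubiquitinase driven by the clock, ran from 158 to 168 CPM in b6j control and from 58.3 to 105 CPM at 2 mg/kg (log2 change -0.95 ± 0.13, edgeR adjusted p = 1.2e-06). In ob it ran from 126 to 173 CPM in control and from 57.7 to 109 CPM at 2 mg/kg (-0.92 ± 0.13, adjusted p = 1.16e-06), without overlap in either genotype. Tsc22d3, a glucocorticoid-induced factor, and Scnn1a, a subunit of the epithelial sodium channel, also fell in both, by 0.93 and 0.40 in b6j and by 0.65 and 0.43 in ob on the log2 scale. Coq10b fell in both as well (-0.39 and -0.56), while Wee1 (-0.63) and Por (-0.44) were called in b6j, and Slc9a3 (-0.60) and Aqp2 (-0.77) in ob. The Aqp2 call (adjusted p = 0.0484) ended without any 1 of 8 libraries, ob 2 mg/kg replicate 5 among them (-0.56, adjusted p = 0.103). Aqp2 is also among the loop of Henle and distal nephron markers counted further on, so it enters both counts.

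Of these outputs 3 rose in both genotypes: Cdkn1a, the cell cycle inhibitor p21, Alas1 (0.93 ± 0.16 in b6j and 0.76 ± 0.16 in ob) and Nampt (0.36 ± 0.12 and 0.72 ± 0.12). Cdkn1a ran from 3.27 to 16.7 CPM in b6j control and from 21.3 to 52.9 CPM at 2 mg/kg, a log2 change of 2.53 ± 0.52 (edgeR, adjusted p = 0.00041) that was 3.14 without b6j control replicate 4, the highest control. In ob it ran from 5.82 to 7.67 CPM in control and from 31.9 to 62.6 CPM in 5 of the 6 libraries at 2 mg/kg, with 580 CPM in replicate 5. The log2 change was 4.32 ± 0.55 with all libraries and 2.78 (adjusted p = 1.27e-09) without replicate 5. Lonrf3 was called higher in ob (0.84 ± 0.26, adjusted p = 0.0108), and without replicate 5, at 35.5 CPM, it was not (0.26, adjusted p = 0.229). The Nampt call in b6j ended without b6j control replicate 2 or b6j 2 mg/kg replicate 1 (0.32 in both, adjusted p = 0.0565 and 0.0604). Cdkn1a is also induced by DNA damage and Alas1 by haem demand, as background.

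The 6 stress-inducible and glucocorticoid genes were followed because both kinds of signal are known to induce Per1. In b6j at 2 mg/kg 2 rose and 3 fell, and in ob 4 rose and 1 fell, 5 of 6 in each where 23.7% and 38.4% of all genes were called, and the counts were the same without ob 2 mg/kg replicate 5. The immediate early genes Fos (1.56 ± 0.40 in b6j and 1.62 ± 0.41 in ob) and Junb (0.85 ± 0.25 and 1.32 ± 0.25) rose in both, and Dusp1, a phosphatase of MAP kinases, fell in both (-0.95 ± 0.17 and -1.17 ± 0.17). Egr1 rose in ob (2.12 ± 0.50, and 1.36 without replicate 5) and was at 0.98 ± 0.48 in b6j, where it was not called (edgeR, adjusted p = 0.143).

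The glucocorticoid-induced Fkbp5 and Zbtb16 fell in b6j. Fkbp5 ran from 90.1 to 182 CPM in b6j control and from 63.0 to 104 CPM at 2 mg/kg (-0.93 ± 0.33, edgeR adjusted p = 0.0364), and this call ended without any 1 of 8 libraries (adjusted p from 0.0523 to 0.0754). Zbtb16 was lower (-1.04 ± 0.34, adjusted p = 0.0224), which no longer passed without b6j control replicate 1 or b6j 2 mg/kg replicate 3, 5 or 6 (adjusted p from 0.0546 to 0.0593). In ob Fkbp5 was not called, at 0.54 ± 0.33 with all libraries and -0.29 without replicate 5, which stood at 473 CPM over a group median of 88.9 CPM. Zbtb16 rose in ob by 1.54 ± 0.34, and by 0.91 without replicate 5.

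Markers of cell types moved at 2 mg/kg together with the clock genes, and their part in the result was not tested. The 5 injured tubule markers summed to between 13.9 and 197 CPM in b6j control (median 18.3, with 197 CPM in replicate 4), 150 to 285 CPM in b6j 2 mg/kg (median 198), 16.7 to 22.4 CPM in ob control (median 19) and 114 to 2480 CPM in ob 2 mg/kg (median 227, with 2480 CPM in replicate 5). By edgeR 4 of the 5 were called higher in b6j and 5 in ob. The 6 proximal tubule markers summed to 33900 to 44100 CPM in b6j control and 17900 to 27100 CPM in b6j 2 mg/kg. In ob they summed to 16800 to 25100 CPM in control and 835 to 15200 CPM at 2 mg/kg. Of the 6 markers 1 was called lower in b6j and 2 in ob, and their median log2 change was -0.35 in b6j and -0.55 in ob.

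Leukocyte markers (6) summed to a median of 20.1 CPM in b6j control and 30.7 CPM at 2 mg/kg (ranges 14.9 to 24.7 and 26.5 to 39.4), and to 22.4 and 37.6 CPM in ob (19.1 to 26.1 and 31.4 to 55.4), with 2 of the 6 called higher in each. The 4 podocyte markers were called lower in 0 of 4 in b6j and 3 of 4 in ob, and the 4 endothelial markers in 0 and 4. Loop of Henle and distal nephron markers (6) were called lower in 1 in b6j (sums of 4850 to 5750 and 4340 to 6280 CPM) and 5 in ob (5390 to 6220 and 1190 to 4570 CPM, the lowest in replicate 5). Without ob 2 mg/kg replicate 5 these counts in ob were 4 podocyte, 2 endothelial and 3 distal nephron markers, and 4 proximal tubule markers were called lower in b6j and 3 in ob. Of the 5 markers of fat around the kidney 2 were called higher in b6j and none in ob.

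Adrenal cortex markers (5, of which 3 were tested, 3 called higher in b6j at 2 mg/kg and 1 in ob) summed to at most 5.66 CPM in 35 libraries and to 65.2 CPM in b6j 2 mg/kg replicate 3, where Cyp11b1 stood at 13.8 CPM and Cyp21a1 at 17.3 CPM. Cyp11b1 was at 0 in both control groups and both 0.5 mg/kg groups. That library was neither the highest nor the lowest of its group for any of the 10 clock genes.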

How the data were processed

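RNA from 36 kidney samples was extracted with TRIzol and had a RIN above 6.5, per the labels' protocols. The deposited values are whole-number read counts per gene. The authors used bcl2fastq, Trimmomatic, FastQC and STAR with GRCm38, per the submitters' processing notes, and featureCounts 1.4.6-p2 over exons of an Ensembl annotation with no strand option, per the file headers. A joined table (36 columns) was not used.

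Counts were fitted in 1 model of 6 groups with edgeR 4.0.16 (R 4.3.3), with its expression filter, TMM factors (0.892 to 1.122) and the quasi-likelihood test, Benjamini-Hochberg adjusted over 18180 genes in each of 11 comparisons, at 0.05. The SE is the log2 change over the square root of F. CPM used TMM-scaled library sizes, and RPKM the union of exons. The 95% intervals come from the SE and hold the spread between samples. The floor of 3 counts covers counting error only. Alternatives were DESeq2 1.42.0, limma 3.58.1 (voom), scaling, filters, groups fitted, a replicate block and libraries left out. The count test was tested on simulated data, in which each gene had the same spread in all groups and no library was set apart. That trial does not cover the effect of a library that stands far from the rest.

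The members and lists were chosen with earlier results of these data known. All 10 members are named; of the other clock, output and stress lists, genes called against control at 2 mg/kg (1 gene is not reported here), and of the markers only counts and sums; and for Arntl and Dbp the 5 genes of highest and 3 of lowest correlation.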

Additional observations from a re-analysis of the deposited data

Results flagged for a closer look

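In 60 sets of 6 libraries (10 genes in 6 groups), the highest or lowest library lay farther from its neighbour than Dixon's 95% limit of 0.625 of the range in 7 cases, where chance gives about 1 in 20 sets. Of these, 4 fell on b6j 2 mg/kg replicate 6: Npas2 highest at 7.99 CPM, and Per3, Dbp and Ciart lowest at 21.2, 15.6 and 2.72 CPM. Another 2 fell on ob 2 mg/kg replicate 5, with Per1 highest at 432 CPM and Dbp lowest at 16.6 CPM. The last was Npas2 in b6j control replicate 6, lowest at 0.627 CPM. Genes of 1 library are not independent of each other. The share of these values that comes from tissue makeup, time of collection or handling was not tested.

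Among the listed clock, output and stress genes outside the 10, the response to 2 mg/kg differed between genotypes by the interaction test for 2, where 2.07% of all genes were called. By the same test 3 of 4 podocyte and 2 of 4 endothelial markers were called lower and 2 of 5 injured tubule markers higher. Nfil3, a repressor at D-boxes, ran from 3.57 to 11.9 CPM in b6j control, 2.2 to 8.92 in b6j 2 mg/kg, 1.42 to 2.84 in ob control and 2.38 to 14.8 in ob 2 mg/kg. The difference in log2 change was 2.07 (edgeR, adjusted p = 0.0426), and 1.32 (adjusted p = 0.0794) without ob 2 mg/kg replicate 5. This call ended for 15 of the 24 libraries left out in turn, with differences of 1.32 to 2.13 (adjusted p from 0.0536 to 0.0794). Zbtb16, a glucocorticoid-induced factor, fell in b6j (-1.04) and rose in ob (1.54). The difference was 2.57 (adjusted p = 0.00242), and 1.95 (adjusted p = 0.00102) without that library.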

How the results depend on the processing

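Of the 28 calls made for single clock genes, 21 kept their call and direction under every alternative run. Where a value did not, the cause was not tested. Hour of collection is not known, so time and treatment cannot be told apart. The share of all genes called also moved with the setting, so a changed count does not by itself describe the clock genes. Between controls that share was 15.5% in the main fit, 21.3% with scaling by library size only and 26.0% without ob 2 mg/kg replicate 5. In counts of clock genes called, ob against b6j control had 2, against 1 with no filter, 4 with voom, 8 in a fit of the compared groups only and 0 to 3 without single replicates. The b6j response to 2 mg/kg had 4 calls, against 7 with voom. The ob response to 0.5 mg/kg had 0, against 3 lower (Per1, Per3 and Hlf) with voom and with the compared groups only, and 0 to 1 without single replicates. Between genotypes at 0.5 mg/kg there were 0, against 1 with voom, 1 with the compared groups only and 0 to 1 without single replicates. Between genotypes at 2 mg/kg there were 2, against 1 with no filter, 1 with DESeq2 (which gave Per1 no adjusted p), 0 with voom, 0 with the compared groups only and 0 to 3 without single replicates.

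Some changes turned sign, all log2. For Npas2 in b6j the ranges without single replicates were -0.39 to 0.47 for 2 mg/kg against control (0.29 with all libraries) and -0.13 to 0.72 for 2 against 0.5 mg/kg (0.54). Per1 in ob at 2 against 0.5 mg/kg (0.37) was -0.93 with voom and ran from -0.99 to 0.57. Its genotype difference in the response to 2 mg/kg (0.75) was -0.55 with voom and ran from -0.61 to 0.94. Between genotypes at 2 mg/kg Arntl (-0.02) ran from -0.45 to 0.47, Npas2 (-0.45) from -0.66 to 0.23, and Dbp (-0.27) was 0.03 with voom. The correlation of Arntl with Per1 (0.15) was -0.26 without the 2 libraries farthest from the Arntl median and -0.48 without ob 2 mg/kg replicate 5.

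Leaving out both far libraries, ob 2 mg/kg replicate 5 and b6j 2 mg/kg replicate 6, was chosen after seeing the data. The calls among the 10 were then 6 between controls (26.4% of all genes), 3 for ob at 0.5 mg/kg (9.93%), 2 between genotypes at 0.5 mg/kg (19.4%) and 4 for the genotype difference at 2 mg/kg (4.52%). Npas2 in b6j was then at -0.39 (against control) and -0.13 (against 0.5 mg/kg), Per1 in ob at -0.98 (2 against 0.5 mg/kg), and the Per1 genotype difference at -0.75. Between genotypes at 2 mg/kg Npas2 was then at 0.02, Per1 at -0.02, Per2 at -0.06 and Ciart at -0.08.

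Replicate numbers did not pair the samples: 6 of 36 libraries correlated best with a library of their own number, and the median r of same-numbered samples ran from -0.08 to 0.07 over pairs of groups. With a replicate block the calls went from 2 to 1 between controls, from 7 to 6 for ob at 2 against 0.5 mg/kg, and from 2 to 1 between genotypes at 2 mg/kg. The sign of Per1 in ob at 2 against 0.5 mg/kg turned under the block (-0.05).

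Scaling by library size only moved the median log2 change of all genes to 0.161 between controls, 0.119 in b6j at 2 mg/kg against either group, -0.11 in ob at 0.5 mg/kg and 0.124 in ob at 2 against 0.5 mg/kg.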
